A study of Mus musculus with 12 samples.

Results

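The microRNA miR-126 was described through its 2 mature strands, miR-126-3p (mmu-miR-126-3p) and miR-126-5p (mmu-miR-126-5p), which were taken by name from a table of 1096 mouse miRNA names. The table holds quadriceps muscle of 7-day-old C57Bl/6 mice, 6 wild-type (WT1 to WT6) and 6 cofilin-2 null (KO1 to KO6), with each mouse as its own sample and no treatment. Cofilin-2, encoded by Cfl2, is the muscle form of the actin-severing cofilins, and the study asked how its loss alters RNA levels in muscle. The methods describe mutants paired with WT littermates, and neither they nor the labels say that equal numbers mark a pair. Each value is the normalized brightness of the array spot for a miRNA, on a linear scale, and means are given ± SD over the 6 mice of a genotype. All WT samples carried the dye Cy5 and all KO samples Cy3 per the labels, so dye and genotype cannot be told apart in any comparison given here. Whether a WT and a KO sample shared an array is not stated. Cfl2 was not measured on this array, and the genotypes could not be checked with it.

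A miRNA is cut from the stem of a short hairpin RNA, which can release a mature strand from each side, named 5p and 3p. The released strand guides silencing complexes to messenger RNAs that pair with its seed, the bases near its 5′ end. miR-126 is the best known miRNA of endothelial cells, the lining of blood vessels. It is carried in an intron of Egfl7, a gene for a protein that endothelial cells secrete. miR-126-3p is known to lower Spred1 and Pik3r2, brakes on the signalling of vascular endothelial growth factor, and also the adhesion protein Vcam1. miR-126-5p is known to lower Dlk1, an inhibitor of Notch signalling.

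The strand that was measured well, and the hairpin both strands come from, are shown here because the results turn on the contrast between its sides. In RefSeq on GRCm38.p6, where the array's miR-126 matched Mir126a, the hairpin of 73 bases lies at chr2:26591357-26591429 on the plus strand within Egfl7. miR-126-3p takes its bases 46 to 67 (chr2:26591402-26591423), in capitals in the first line. The second line repeats the 22 bases of miR-126-3p with the seed, bases 2 to 8, in capitals.
Mir126a hairpin: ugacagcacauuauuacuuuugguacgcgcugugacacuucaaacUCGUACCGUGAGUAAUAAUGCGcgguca
miR-126-3p: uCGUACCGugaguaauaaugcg
The structure predicted with RNAfold had a free energy of -31.2 kcal/mol. It paired 19 of the 22 bases of miR-126-3p, with partners between positions 7 and 27 on the other side of the stem. Among the 1738 mature miRNA entries of the RefSeq table, no other miRNA name shared this seed. Mir126b, annotated on the opposite DNA strand, overlaps the hairpin over 58 bases and was not analysed here.

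miR-126-3p was bright in every sample and lower on average in KO muscle, with overlap between the genotypes, whereas miR-126-5p gave almost no signal in either. In WT the intensity of miR-126-3p was 4012 in WT1, 4387 in WT2, 4741 in WT3, 2550 in WT4, 3489 in WT5 and 2230 in WT6. In KO it was 2238 in KO1, 760 in KO2, 1210 in KO3, 1296 in KO4, 1565 in KO5 and 2705 in KO6. KO2 to KO5 lay below every WT sample, and KO1 was just above WT6 and KO6 just above WT4, the 2 lowest WT samples. Mean intensity was 3568 ± 1008 for the WT mice and 1629 ± 718 for the KO mice. KO mice were more spread out, with a coefficient of variation of 44.0% against 28.2% in WT and a highest sample 3.56 times the lowest against 2.13 times; this difference in spread was not tested.

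**Figure D1:**
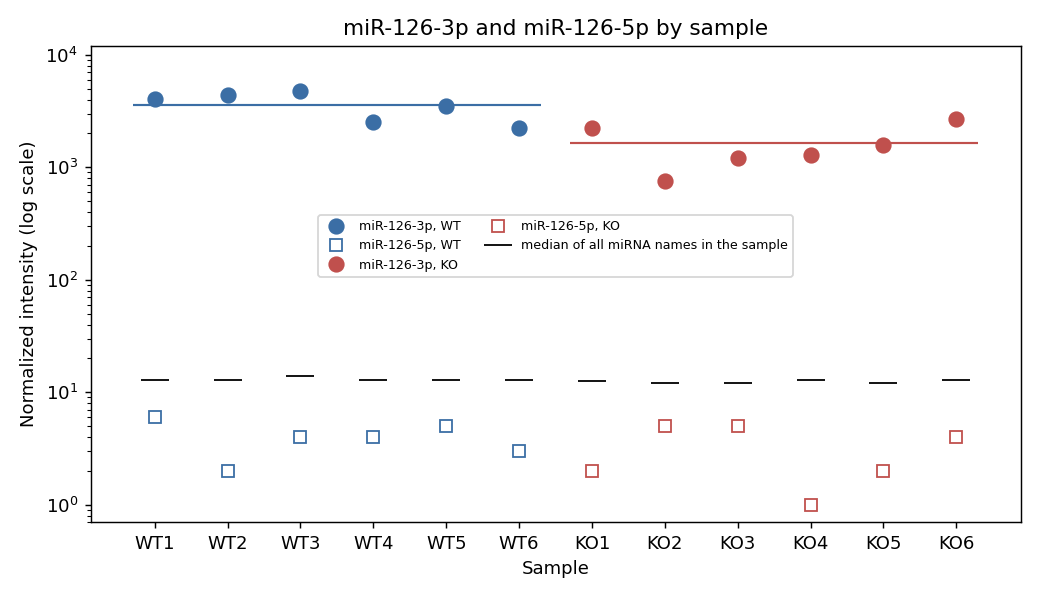
Normalized intensity (log axis) of miR-126-3p (filled circles) and miR-126-5p (open squares) in each WT and KO sample; horizontal lines are group means of miR-126-3p, and black dashes the median of all 1096 names in that sample. miR-126-3p ran from 2230 to 4741 in WT and from 760 to 2705 in KO, while miR-126-5p stayed between 1 and 6, under the dash in every sample.

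On the log2 scale miR-126-3p was at -1.20 in KO relative to WT, with a standard error of 0.313 and a 95% confidence interval from -1.87 to -0.53. It did not pass the threshold of 0.05 after adjustment over the 370 miRNAs tested, which were all names averaging 32 or more over the samples (limma with Benjamini-Hochberg adjustment, adjusted p = 0.0615), which 0.27% of them passed in this direction. It passed without adjustment in limma, as did 9.73% of the miRNAs tested in the same direction. The paper names this strand among its most lowered miRNAs, under a p-value threshold for which it describes no adjustment. As a single value, the difference had p = 0.0108 in a two-sided exact permutation test over all assignments of the samples to the genotypes. Of the 370 miRNAs, 14.1% also had at least 4 of their 6 KO samples below every WT sample. By size the difference was rank 3 among those lower in KO, a direction that 56.8% of the miRNAs tested had. Dividing miR-126-3p by the median intensity of its sample, 12 to 14 throughout, gave a similar log2 difference of -1.11 (two-sided exact permutation test, p = 0.0108). In RNA from whole muscle, fewer endothelial cells and less miR-126 per endothelial cell cannot be told apart.

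The direction did not rest on a single mouse, but the adjusted p of miR-126-3p moved across the threshold with the choice of samples. KO1 stood apart from its group on the whole array, with a mean correlation to the other KO samples of 0.848, against 0.907 to 0.945 for the other KO mice. Without KO1 the log2 difference of miR-126-3p was -1.32 and passed (adjusted p = 0.0242, limma). Without KO6, the brightest KO sample, it was -1.37 and also passed (adjusted p = 0.0301, limma). Without KO2, the dimmest, it was -1.004 (adjusted p = 0.114, limma), and the highest adjusted p over all samples left out was 0.179, without WT2.

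**Figure D2:**
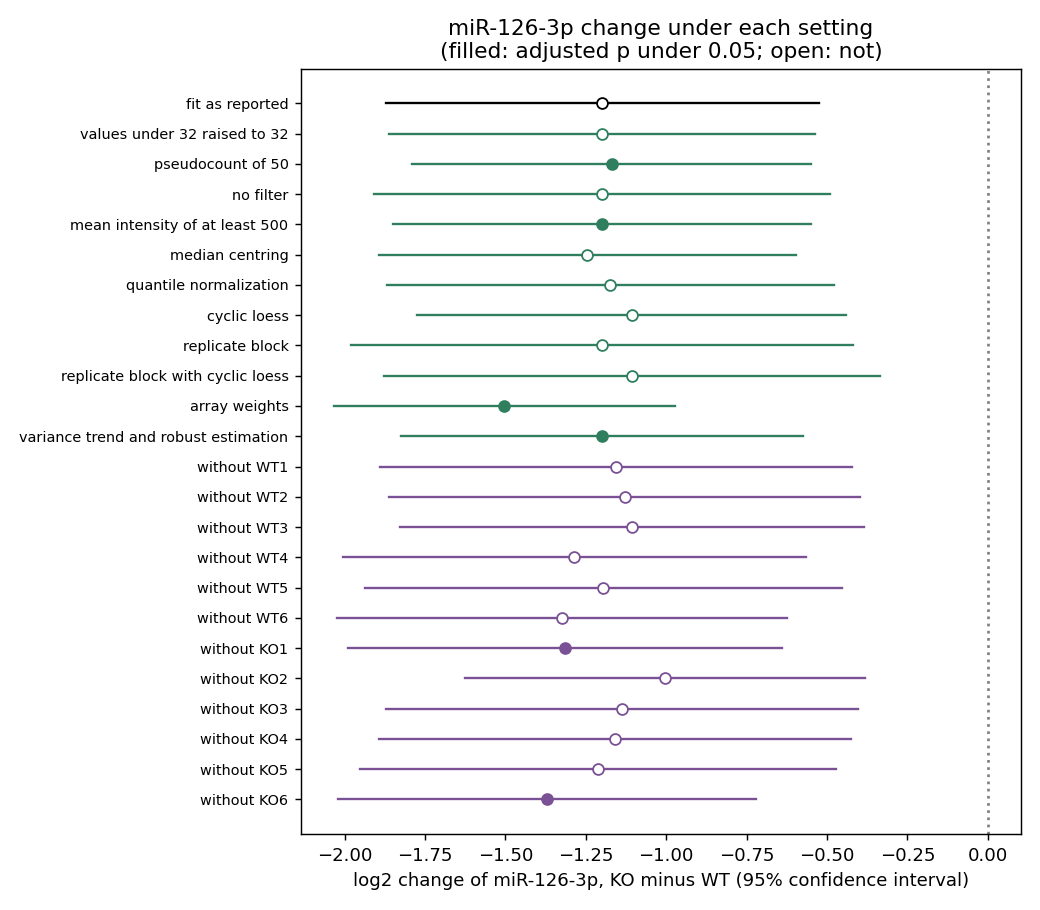
Estimated log2 difference of miR-126-3p, KO minus WT, with its 95% confidence interval in the fit as reported (black), under other settings (green) and with each sample left out (purple); filled points had an adjusted p under 0.05. Estimates run from -1.50 with array weights to -1.004 without KO2, and each interval drawn lies below 0.

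miR-126-5p had no usable level. Its intensities were 6, 2, 4, 4, 5 and 3 in WT1 to WT6 and 2, 5, 5, 1, 2 and 4 in KO1 to KO6. The genotypes overlapped over most of their range, averaging 4.0 ± 1.41 for WT and 3.17 ± 1.72 for KO. In every sample it was under the median miRNA name, and between 67.4% and 94.3% of all names in a sample were brighter. Over the 12 samples its mean was 3.58, and 136 of the 1096 names had a mean as low or lower. The table gives no detection calls, so that the array cannot say whether the strand was present at a low level or only its spot's residual signal was read. It was under the filter on dim miRNAs, so 1 of the 2 strands was tested across all miRNAs, and miR-126-3p passed that filter by its level in both genotypes. A two-sided exact permutation test of the log2 intensities of miR-126-5p gave p = 0.353, and no fold change is given for a spot this dim in both groups.

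The brightness of miR-126-3p over miR-126-5p was 669 in WT1, 2194 in WT2, 1185 in WT3, 637.5 in WT4, 698 in WT5 and 743 in WT6. It was 1119 in KO1, 152 in KO2, 242 in KO3, 1296 in KO4, 782.5 in KO5 and 676 in KO6. KO2 and KO3 had the lowest ratios and WT2 the highest, and the other 9 samples of both genotypes overlapped. Probes differ in how strongly they bind and glow, so a ratio of brightness is not a ratio of molecules, and a change of 1 unit in so small a denominator moves it strongly. The log2 ratio was at -0.72 in KO relative to WT (two-sided exact permutation test, p = 0.279). With values under 32 raised to 32, which leaves the denominator the same in all samples, the difference was that of miR-126-3p alone, -1.20.

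Agreement of the strands from mouse to mouse could not be established either. Within WT, Pearson's r of the log2 intensities was 0.0365 (exact permutation p = 0.950, n = 6) and Spearman's rho was 0.0290 (exact permutation p = 0.994, n = 6). Within KO, r was -0.209 (exact permutation p = 0.678, n = 6) and rho was -0.441 (exact permutation p = 0.433, n = 6). For the 2 relations the adjusted exact permutation p was 0.950 for each r, and 0.994 in WT and 0.867 in KO for rho. Without the 2 samples farthest from the median of miR-126-3p, r was -0.480 in WT (WT4 and WT6 left out) and -0.183 in KO (KO2 and KO6 left out). A correlation with a signal that takes whole values from 1 to 6 says little about the strands themselves.

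A bright strand beside a dim one was a frequent pattern on this array. By their names, 446 pairs of arms had both members in the table, with 25 miRNAs standing in 2 pairs. In 182 of the pairs (40.8%) 1 arm reached a mean intensity of 32 and the other did not, as for miR-126; in 61 both did, and in 203 neither. Of the 182, 73 had a brighter arm with a mean of at least 500, and in 44 of these 73 the dimmer arm had a mean under 13. miR-126 was among the 19 of the 182 pairs whose dimmer arm had a mean of 3.58 or less. The pairs with both arms bright, in which a shift between the strands could be tested, leave out miR-126. None of these 61 differed between genotypes in the log2 difference of its arms after adjustment (limma, smallest adjusted p = 0.313, for miR-381), and 6 had an unadjusted p under 0.05.

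Among the 369 other miRNAs tested, those that varied most like miR-126-3p from mouse to mouse were miR-30c, miR-25, miR-139-5p, miR-376b* and miR-27b. Likeness was Pearson's r of log2 intensity over the 12 samples after taking off each group's mean, so that the genotype difference did not enter. All miRNAs of a sample share its normalization, and r is given as a description. It was 0.894 for miR-30c, 0.893 for miR-25, 0.892 for miR-139-5p, 0.879 for miR-376b* and 0.865 for miR-27b, against a median of 0.0663 over the 369. KO2, low on all of them, and KO6, high on all of them, carried part of the likeness: without these 2 mice the same values were 0.755, 0.809, 0.753, 0.751 and 0.678. miR-25 belongs to the miR-106b cluster and miR-27b to the miR-23b cluster.

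**Figure D3:**
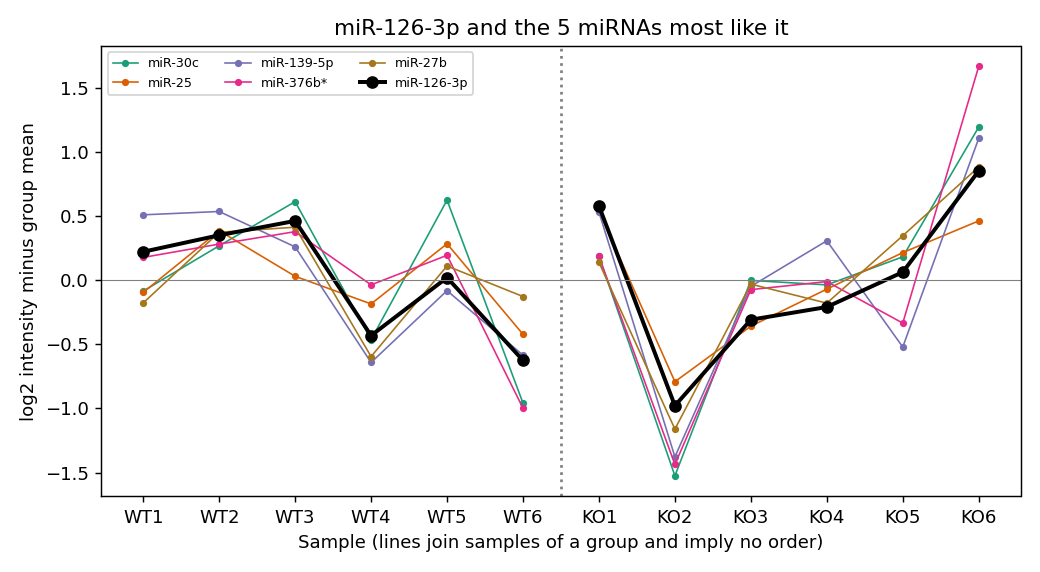
log2 intensity minus the group mean for miR-126-3p (black) and the 5 miRNAs with the highest correlation to it (colours) in each sample; lines join samples of a group and have no order. miR-126-3p was 0.98 below its group mean in KO2 and 0.85 above it in KO6, and the other 5 were also at their lowest in KO2 and high in KO6.

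Of these 5 miRNAs, 4 had a lower mean log2 intensity in KO, beside 56.8% of all miRNAs tested. For miR-30c the log2 difference was -0.75 (limma adjusted p = 0.327), and for miR-139-5p it was -0.68 (limma adjusted p = 0.345). miR-25 averaged 596 ± 124 in the WT mice and 358 ± 117 in the KO mice (log2 difference -0.78, limma adjusted p = 0.109). miR-27b was at 1220 ± 307 and 706 ± 300 (log2 difference -0.87, limma adjusted p = 0.127). miR-376b*, an arm from the Dlk1-Dio3 cluster of miRNAs, was at 161 ± 44.2 and 204 ± 163, a log2 difference of 0.10 (limma adjusted p = 0.935). None of the 5 passed the adjusted threshold, beside 1.35% of all miRNAs tested in either direction. Without adjustment miR-25 and miR-27b passed, lower in KO, as did 9.73% of all miRNAs tested in this direction.

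Other miRNAs known from blood vessels were mostly at lower means in KO, a direction that 56.8% of all miRNAs tested had. Of these vessel miRNAs 1, miR-181b, passed after adjustment. The lists of these miRNAs were chosen with earlier results of these data known. The paper lists miR-181b, miR-16, miR-23a, miR-23b, miR-27a, miR-27b and miR-17 among its most lowered miRNAs. Counts over the lists thus describe the same data again and are no separate support. Of 17 miRNAs listed as promoters of vessel growth, 16 were bright enough to be tested. The list takes in miR-92a and other members of the miR-17-92 cluster, and what each member does to vessels was not tested. At an unadjusted p under 0.05, 5 of the 16 were lower in KO and 0 higher, where 9.73% of all miRNAs tested were lower and 9.73% higher. None of the 16 passed after adjustment in limma. Their median log2 difference was -0.51, against -0.08 over all miRNAs tested. The 5 were miR-23a, miR-23b, miR-27a and miR-27b, which lie in 2 clusters and so are not separate loci, and miR-17 of the miR-17-92 cluster, a promoter of cell division. miR-23b averaged 5824 ± 1546 in the WT mice and 3210 ± 875 in the KO mice, a log2 difference of -0.87 (limma adjusted p = 0.0790). miR-210, the miRNA induced by low oxygen, had a log2 difference of -0.53 (limma adjusted p = 0.497), and miR-378, abundant in muscle, one of -0.08 (limma adjusted p = 0.865). Without KO1, 8 of the 16 were lower at the unadjusted threshold, beside 15.4% of all miRNAs tested. Then 2 of the 16, miR-17 and miR-23b, also passed after adjustment in limma, beside 7.30% of all miRNAs tested in this direction.

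Of 12 miRNAs known to restrain vessel growth, 7 were tested. At the unadjusted threshold 3 were lower in KO and 0 higher, beside 9.73% of all miRNAs tested in each direction. After adjustment 0 passed in limma, and the median log2 difference was -0.57. Without KO1, 3 of the 7 were lower at the unadjusted threshold, beside 15.4% of all, and 3 passed after adjustment in limma (miR-16, miR-100 and miR-222), beside 7.30% of all. miR-16, which restrains the cell cycle and targets vascular endothelial growth factor, averaged 2099 ± 411 in the WT mice and 1027 ± 373 in the KO mice (log2 difference -1.09, limma adjusted p = 0.0586). miR-100 was at 168 ± 32.5 and 88.0 ± 50.7, with a log2 difference of -1.10 (limma adjusted p = 0.0955). miR-503 had a log2 difference of -0.51 (limma adjusted p = 0.251) and miR-222 one of -0.88 (limma adjusted p = 0.282). All 7 had a lower mean log2 intensity in KO, as had 15 of the 16 of the first list, beside 56.8% of all miRNAs tested.

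Of 6 miRNAs known from the inflamed endothelium, 3 were tested, and 2 of the 3 were lower in KO at the unadjusted threshold, beside 9.73% of all miRNAs tested. miR-181b, which dampens inflammatory signalling in endothelial cells, passed after adjustment, as the 1 miRNA of the 370 (0.27%) that did so lower in KO, while 1.35% did so in either direction (log2 difference -1.32, limma adjusted p = 0.0113). miR-181a had a log2 difference of -0.71 (limma adjusted p = 0.121) and miR-146a one of -0.33 (limma adjusted p = 0.763). miR-155 was too dim to be tested. The paper also measured miR-181b by quantitative PCR and reports a trend in the array's direction that was not significant.

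**Figure D4:**
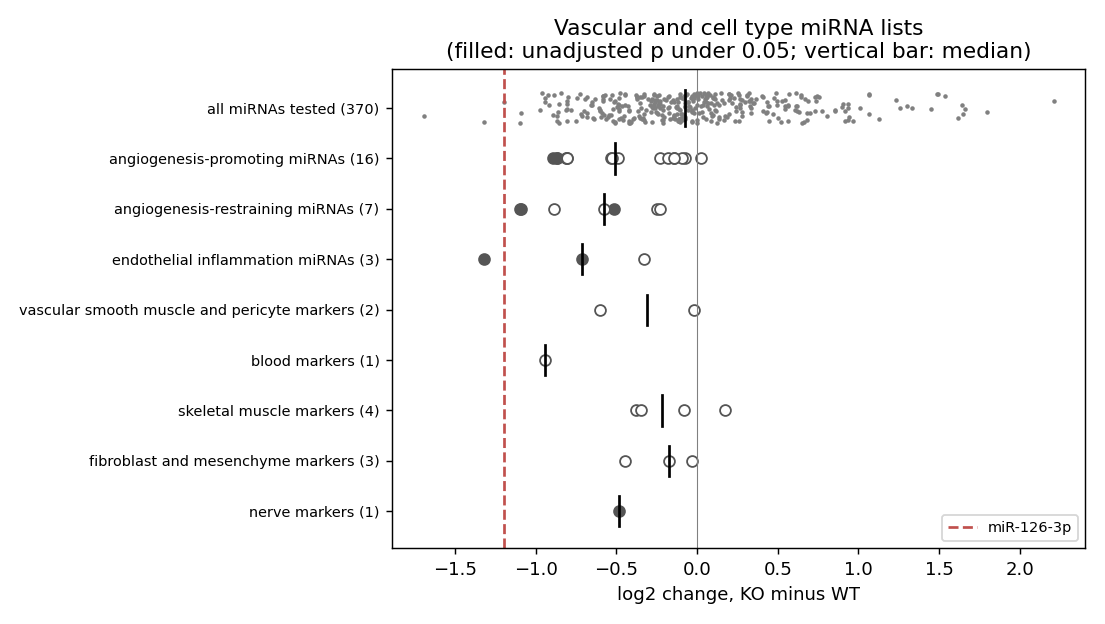
log2 difference, KO minus WT, of the tested members of each list (circles, filled where the unadjusted p was under 0.05) and of all 370 miRNAs tested (grey dots, spread vertically for view); black bars are medians, and the dashed line is miR-126-3p at -1.20. The medians of the 3 vascular lists lie at -0.51, -0.57 and -0.71, and that of all miRNAs at -0.08. Those of the other lists drawn were also below -0.08. They lie at -0.94 for blood and -0.49 for nerve (1 miRNA each), -0.31 for vascular smooth muscle and pericytes, -0.22 for skeletal muscle and -0.18 for fibroblasts and mesenchyme.

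Markers of the other cells in muscle were read beside the lower miR-126-3p. No marker list had more than 4 tested members, so a count of 0 that passed does not show its cells to be unchanged. The skeletal muscle label was borne out by bright miR-1a, miR-133a and miR-206 in all samples (for miR-206, 24991 ± 2061 in WT and 23645 ± 2808 in KO). miR-499, from the same list, was too dim to test, at 13.8 ± 7.78 in WT and 10.7 ± 9.69 in KO. Of the 6 muscle markers 5 were in the table, 4 were tested and 0 passed even without adjustment in limma, beside 19.5% of all miRNAs tested in either direction. The summed intensity of the 5 ran from 81010 to 93258 in WT and from 78883 to 105687 in KO. Of the 4 markers of vascular smooth muscle and pericytes, the cells that wrap vessels, 2 were tested and 0 passed at an unadjusted p under 0.05. Without KO1 miR-145 did, lower in KO, beside 15.4% of all miRNAs tested in this direction. miR-143 averaged 3086 ± 433 in the WT mice and 3130 ± 978 in the KO mice, a log2 difference of -0.02, while miR-145 was at 1254 ± 326 and 859 ± 316, one of -0.60 (limma adjusted p = 0.261). The sum of the 4 ran from 3575 to 4922 in WT and from 3258 to 6252 in KO.

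Of the 6 blood markers only miR-451, a red cell miRNA, was bright enough to be tested. It averaged 214 ± 129 in the WT mice and 133 ± 113 in the KO mice, a log2 difference of -0.94 (limma adjusted p = 0.497). The sum of the 6 ran from 102 to 475 in WT and from 51 to 372 in KO. miR-142-3p, which marks white cells, was between 0 and 7 in all samples. The 3 fibroblast and mesenchyme markers in the table, of a list of 4, were all tested (sums of 16074 to 21782 in WT and 14641 to 19988 in KO). Of them 0 passed even without adjustment, beside 19.5% of all miRNAs tested in either direction. Of 3 nerve markers only miR-128 was tested (log2 difference -0.49, limma adjusted p = 0.220). It passed without adjustment but not with it, beside 9.73% of all miRNAs tested that were lower in KO without adjustment. The 3 summed to between 870 and 1522 in WT and between 708 and 1216 in KO, nearly all of it miR-128. miR-124 averaged 9.0 ± 3.85 in the WT mice and 11.3 ± 11.8 in the KO mice, and miR-9 2.67 ± 1.37 and 2.0 ± 1.67. The nerve list thus rested on miR-128 alone, and whether its signal came from nerve was not tested. The 6 epithelial markers were all too dim to test, with sums of 13 to 39 in WT and 17 to 38 in KO. From mouse to mouse, with group means taken off, r with miR-126-3p is given for all 11 markers tested, as a description over the 12 samples. It was 0.805 for miR-128, 0.80 for miR-451, 0.785 for miR-199a-5p, 0.637 for miR-145 and 0.575 for miR-199a-3p. It was 0.433 for miR-206, 0.427 for miR-133a, 0.365 for miR-133b, 0.00636 for miR-143, -0.33 for miR-214 and -0.59 for miR-1a. At the top of this order miR-128, miR-451 and miR-199a-5p, each from another list, thus had values close to each other. They do not stand for their lists: miR-214, listed with miR-199a-5p, was at -0.33, and miR-128 and miR-451 were the only tested members of theirs. Without KO2 and KO6 it was 0.838 for miR-128, 0.658 for miR-451, 0.690 for miR-199a-5p and 0.774 for miR-145. The part of blood, vessel wall or other cells in the result for miR-126-3p was not tested.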

How the data were processed

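Total RNA from quadriceps was hybridised to arrays of mouse miRNA probes. The deposited values are normalized intensities in whole numbers on a linear scale. The authors' methods state that the data were normalized. How this was done, the background correction and the test used for miRNAs are not given in the sources used here. Array intensities hold no counts, so the number of mice limits the precision. The samples' summed intensities ran from 594311 to 636136.

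Groups came from the sample titles. Log2 was taken after setting intensities below 1 to 1, and the 370 miRNAs averaging 32 or more were compared with limma 3.58.1 in R 4.3.3 (two-sided, Benjamini-Hochberg). The test was checked on simulated data. Exact permutation tests enumerated all assignments of the samples, or all 720 pairings for a correlation. RNAfold 2.7.2 predicted the hairpin. The members, the lists and the tests were chosen with earlier results of these data known. The miRNAs named are the 2 strands, the 5 most like miR-126-3p and the arm pairs with the smallest p. Up to 4 members with the smallest p from each list and leading markers were also named. Added after their values were seen were miR-23a, miR-210, miR-378, miR-155, miR-124, miR-9 and miR-499. Likeness to miR-126-5p was not computed, since it was too dim. The marker miR-1 was read under its name on the array, miR-1a. Matching by GC content was void, since 284 of the 370 miRNAs (76.8%) matched a sequence.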

Additional observations from a re-analysis of the deposited data

How the results depend on the processing

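The direction of miR-126-3p, lower in KO, was kept under all 12 settings tried and with each sample left out. Its log2 difference ran from -1.37 to -1.004 with a sample left out. In the fit reported it did not pass after adjustment. It passed with a pseudocount of 50 (-1.17), a minimum mean of 500 (-1.20), array weights (-1.50), and a variance trend with robust estimation (-1.20), with adjusted p-values down to 0.00138. With no filter the adjusted p was 0.220 over 1096 names. With the replicate number as a block the difference was -1.20 (limma adjusted p = 0.106), and with the block and cyclic loess -1.11 (limma adjusted p = 0.118). Samples of equal number did not deviate together throughout. The correlation of their deviations ran from -0.45 to 0.594, and 3 of 6 KO samples correlated best with their own number. This check does not settle whether equal numbers mark littermates or a shared array. The fit reported left the numbers out because neither the labels nor the methods say that they mark pairs. By limma, 5 miRNAs passed after adjustment in the fit reported; this count was 14 with a pseudocount of 50, 21 with the minimum mean of 500, 1 unfiltered, 8 after quantile normalization, 11 after cyclic loess, 115 with array weights, 14 with the variance trend, and 3 to 49 with a sample left out (49 without KO1).

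For the strands, the log2 difference of the ratio, -0.72, had p = 0.0108 by exact permutation with values under 32 raised to 32 (-1.20) and with a pseudocount of 50 (-1.15), both of which flatten miR-126-5p; with a sample left out it ran from -0.97 to -0.35. The strand correlation in WT changed sign after median centring (-0.00345) and cyclic loess (-0.0758), and ran from -0.24 to 0.631 with a sample left out; in KO it ran from -0.54 to 0.213. Leaving out KO1 was a choice made after the data were seen. Then 8 and not 5 of the 16 miRNAs listed as promoters of vessel growth were lower at an unadjusted p under 0.05. The share over all miRNAs tested went from 9.73% to 15.4%. After adjustment in limma 2 and not 0 of these 16 passed, and 3 and not 0 of the 7 that restrain it. Of the 2 vascular smooth muscle and pericyte markers tested, 1 and not 0 passed at the unadjusted threshold. Counts for the inflamed endothelium and for the other markers tested were the same. For miR-126-5p the floor of 32, the minimum of 500, array weights, the variance trend and the t-test were not run, nor the floor for the strand correlations. Except for these flattening settings, the cause of these shifts was not tested. Intensities near those of miR-126-5p set the limit of what can be read.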
